A study of Mus musculus with 8 samples.

Results

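The 36 genes described here mark blood-derived cells: macrophages, granulocytes, mast cells and platelets, together with genes that all white blood cells share. They were chosen by symbol from a table of 55487 genes, and each symbol had 1 entry in it. By role, 16 are genes of tissue macrophages, 8 are pan-leukocyte or myeloid signalling genes, 7 are granulocyte genes, 2 are mast cell genes and 3 are platelet genes. The libraries were made from total RNA of germ cells that had been sorted by fluorescence from fetal testes of C57BL/6 mice. All animals carried Oct4-eGFP on both alleles, a transgene that makes germ cells fluoresce green under control of Oct4 (Pou5f1), a pluripotency gene. The 4 libraries labelled WT came from littermates with the reporter alone, and the 4 labelled KO from littermates that were also Rhox10-null, which lack a homeobox gene of the X-linked Rhox cluster. The fetal age, which part of the gene was deleted, and whether a library came from 1 animal or a pool are not given in the sources used here. The p-values therefore measure the spread between these samples, which may be technical.

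Macrophages settle in the fetal testis early, where they engulf dying cells and remodel vessels. Their survival depends on the growth factor receptor CSF1R and their identity on the transcription factor PU.1, which Spi1 encodes. Granulocytes are made in the fetal liver, travel in blood and carry granules of antimicrobial proteins such as lactoferrin and cathelicidin, which are made in sequence as the cell matures. Mast cells store proteases with histamine, and platelets are shed by megakaryocytes.

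The libraries held 16346977 to 20311338 counts. Reads of germ-cell genes were present, with Ddx4, which encodes the helicase VASA, at 44.5 ± 3.40 CPM (counts per 1000000 counts of the library, scaled for composition; SD, n = 4) in the WT and 43.4 ± 0.971 in the KO libraries. Per kilobase of gene, Ddx4 stood at 14.8 CPM in the WT libraries, while Cyp17a1, a steroid-synthesis gene of Leydig cells, stood at 474 CPM per kilobase. Genes of other cells were thus abundant under the label of purified germ cells. Rhox10 itself had 17 to 25 counts in the WT and 10 to 22 in the KO libraries (log2 fold change -0.28, edgeR adjusted p = 0.767). The groups overlapped, so the gene's counts do not check the genotype labels, and directions below are between libraries so labelled.

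Transcripts of these 36 leukocyte genes were scarce and, in sum, lower in the KO libraries. The 36 genes together took 70.1 to 78.7 CPM of the unscaled library totals in the WT libraries and 54.0 to 58.9 in the KO libraries, without overlap. After scaling, their summed level averaged 75.1 CPM in the WT and 57.6 CPM in the KO libraries, a ratio of 0.766. In such bulk samples fewer cells of a type and less RNA per cell cannot be told apart. Granulocyte genes showed the lowest ratio of the groups with over 2 CPM, 0.636, followed by tissue macrophage genes at 0.784, pan-leukocyte genes at 0.898 and platelet genes at 0.915. Their sums ran from 20.6 to 24.2 CPM in the WT and 12.6 to 15.5 in the KO libraries for granulocyte genes, and from 32.0 to 36.4 and 25.9 to 29.3 for macrophage genes. The sums of pan-leukocyte genes (10.1 to 12.3 and 6.97 to 12.7 CPM) and platelet genes (6.50 to 7.32 and 5.72 to 7.12 CPM) overlapped between the groups. The differences between these ratios were not tested.

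Of the 36 genes, 22 had enough reads to be tested, and 4 of them fell in the KO libraries: Ngp, Ltf and S100a9 of granulocytes and Lyz2 of macrophages. None rose. Over all 23190 genes tested, 2.80% were called lower and 2.35% higher (5.14% in all). The split of 649 lower and 544 higher calls became 836 and 426 when libraries were scaled by their totals alone, and 555 and 633 by their upper quartiles, and the same 4 members were called under both. Of the 22 tested members 21 had a log2 fold change below 0, against 49.3% of all genes tested. Fitted without a filter, 31 of the 36 genes had a log2 fold change below 0, with a median of -0.44; over all 45095 genes of that fit 48.9% were below 0, and the median was 0.0049. In that fit 2.12% of all genes were called, and the same 4 members. The 5 above 0 were Coro1a, Cd52, Cd14, Cd163 and Pf4, all with groups that overlapped.

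The sequences just before the 4 genes that fell are shown because these are the members that passed the test and because PU.1 is the common regulator of myeloid genes. Each is the 150 bases before the gene's outermost annotated start, on the gene's strand, from RefSeq (GRCm38.p6). Capitals mark the letters GAGGAA, a core that PU.1 can bind, read on either strand (TTCCTC on the strand shown). The Ngp stretch lies at chr9:110419597-110419746 (plus strand), that of Ltf at chr9:111019121-111019270 (plus), that of S100a9 at chr3:90695722-90695871 (minus) and that of Lyz2 at chr10:117282322-117282471 (minus). Lyz1, at chr10:117292869-117293018 (minus), is added as the neighbouring copy of Lyz2.
Ngp: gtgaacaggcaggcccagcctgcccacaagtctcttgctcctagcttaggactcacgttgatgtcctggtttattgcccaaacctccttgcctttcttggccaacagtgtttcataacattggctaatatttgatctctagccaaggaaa
Ltf: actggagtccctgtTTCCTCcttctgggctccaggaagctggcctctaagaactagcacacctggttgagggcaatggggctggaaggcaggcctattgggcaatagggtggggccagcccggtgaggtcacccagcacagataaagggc
S100a9: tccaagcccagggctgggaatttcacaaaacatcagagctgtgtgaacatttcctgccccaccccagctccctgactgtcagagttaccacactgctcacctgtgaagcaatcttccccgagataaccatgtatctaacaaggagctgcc
Lyz2: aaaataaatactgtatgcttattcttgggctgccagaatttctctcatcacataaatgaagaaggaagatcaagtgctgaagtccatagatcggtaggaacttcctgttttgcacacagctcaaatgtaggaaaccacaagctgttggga
Lyz1: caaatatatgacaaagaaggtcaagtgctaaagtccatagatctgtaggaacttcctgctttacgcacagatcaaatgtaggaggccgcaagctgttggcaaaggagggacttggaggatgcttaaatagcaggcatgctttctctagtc

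Of these 5 stretches, only that of Ltf held the letters GAGGAA, 136 bases before the start. Other forms of the core were not searched for in them. A stretch without capitals is therefore not shown to lack a place that PU.1 can bind. In the RefSeq windows of 250 bases before to 50 after each start, 18 of the 29 members with a window held GAGGAA on either strand (62.1%), against 31.3% of all 27025 genes with one. The longer GAGGAAG, which lies within matches of the first, was held by 13 of 29 (44.8%) and by 15.4% of all genes. By role, GAGGAA was in the windows of 8 of 12 macrophage genes, 3 of 5 pan-leukocyte genes, 4 of 7 granulocyte genes, all 3 platelet genes and neither mast cell gene. A match is a description of letters and not of a bound site. The Lyz1 and Lyz2 stretches aligned over 100 columns with 85.0% identity, offset by the different annotated starts.

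Granulocyte genes held 3 of the 4 falls, though which cells made these transcripts was not tested. Ngp, which encodes neutrophilic granule protein, of the secondary granules, lies on chromosome 9 from 110419747 to 110423012 (GRCm38). It stood at 7.34, 7.24, 6.95 and 8.04 CPM in WT replicates 1 to 4 and at 4.34, 3.88, 4.04 and 5.69 in KO replicates 1 to 4. Every KO library lay below every WT library. The means were 7.39 ± 0.463 and 4.49 ± 0.822 CPM (SD, n = 4), a log2 fold change of -0.71 with a standard error of 0.13 (edgeR adjusted p = 1.63e-05), or 1.64-fold lower. Ltf encodes lactoferrin, the iron-binding protein of the same granules, and lies on chromosome 9 from 111019271 to 111042767, 596 kb from Ngp. Its levels were 4.995, 5.65, 6.47 and 5.15 CPM in the WT libraries and 4.16, 3.23, 2.78 and 2.82 in the KO libraries, again without overlap. Ltf fell by 0.79 on the log2 scale (standard error 0.15, edgeR adjusted p = 4.24e-05), 1.73-fold. Camp, the cathelicidin gene on the same chromosome and another secondary granule product, was at 0.933 ± 0.321 and 0.689 ± 0.228 CPM (log2 fold change -0.44, standard error 0.35, adjusted p = 0.614), with groups that overlapped.

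S100a9 encodes the larger subunit of calprotectin, the calcium- and zinc-binding protein of the neutrophil cytosol. The gene lies on chromosome 3 from 90692632 to 90695721 and stood at 4.03, 5.25, 4.26 and 5.67 CPM in the WT libraries and 3.97, 2.63, 3.62 and 2.72 in the KO libraries. The groups came close, KO replicate 1 lying just below WT replicate 1, but did not overlap. Its log2 fold change was -0.57 (standard error 0.16, edgeR adjusted p = 0.0118). S100a9 no longer passed when WT replicate 2 (adjusted p = 0.0592) or 4 (0.0903) or KO replicate 2 (0.0845) or 4 (0.0804) was left out, nor with DESeq2 (0.0524). S100a8, its partner subunit, lies 22.6 kb away on the opposite strand and had 1.57, 1.78, 0.737 and 1.91 CPM in the WT and 1.53, 1.26, 1.21 and 1.74 in the KO libraries. The groups overlapped fully (log2 fold change -0.06, standard error 0.26, adjusted p = 0.953). Per kilobase S100a9 was the more abundant subunit gene, at 9.20 against 2.16 CPM per kilobase in the WT libraries. A test of the log2 ratio of S100a9 to S100a8 within each library did not show that the pair differed in response: the ratio was 1.74 ± 0.513 in the WT and 1.15 ± 0.406 in the KO libraries (SD, n = 4; exact two-sided permutation p = 0.200, 0.600 adjusted over 3 pairs). Of the other pairs so tested, Ngp over Camp changed by -0.31 (exact p = 0.486, adjusted 0.729) and Lyz2 over Lyz1 by 0.04 (exact p = 0.914, adjusted 0.914), where 0.0286 is the smallest p that the 70 splits allow. At that floor 1 pair alone could not reach an adjusted p under 0.05, so the adjusted values cannot decide whether a single pair differed.

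Elane and Mpo, which encode neutrophil elastase and myeloperoxidase of the primary granules made earlier in maturation, had the lowest fold changes of the group but few reads. Elane counts were 12, 15, 7 and 15 in the WT and 2, 3, 11 and 4 in the KO libraries. All but KO replicate 3 lay below the WT range, and the log2 fold change of -1.25 (standard error 0.46) did not pass (edgeR adjusted p = 0.0922). Without KO replicate 3 Elane was called, at -1.93 (adjusted p = 0.0258). Mpo had 1.20 ± 0.358 and 0.677 ± 0.316 CPM (SD, n = 4; log2 fold change -0.80, adjusted p = 0.173). KO replicate 4, at 1.08 CPM, lay within the WT range of 0.991 to 1.74. Prtn3, also a granule protease gene but of the wider monocyte and neutrophil list, was named after its values were seen. It had 9, 13, 15 and 9 counts in the WT and 10, 14, 11 and 10 in the KO libraries. Its log2 fold change was 0.005 (edgeR adjusted p = 0.9975), so the lower values of Elane and Mpo were not shared by this gene.

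**Figure D1:**
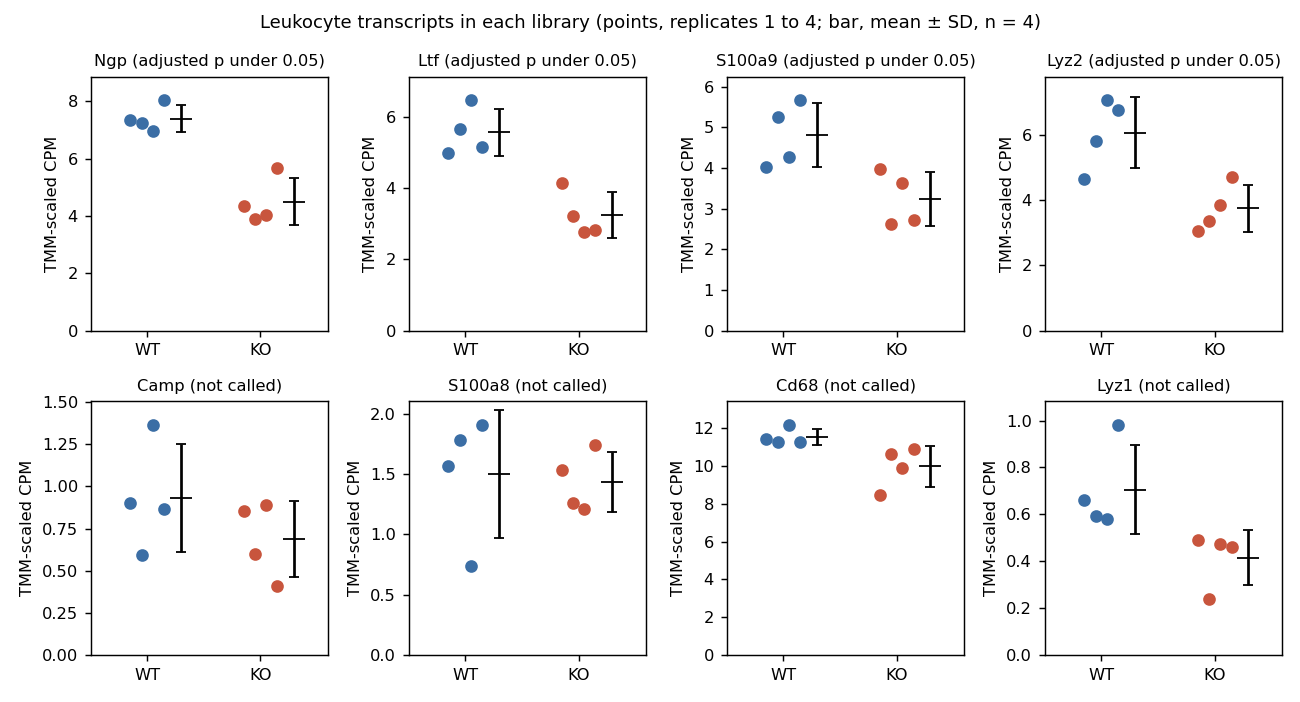
TMM-scaled CPM of 8 members in each library (points, WT blue and KO red; bars, mean and SD, n = 4), each panel with its own linear axis from 0. The upper row holds the 4 genes that passed the test, of which Ngp, Ltf and S100a9 did not overlap and Lyz2 did; the lower row holds Camp, S100a8, Cd68 and Lyz1, which did not pass.

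Among macrophage genes, Lyz2 was the 1 of 8 tested that passed. It encodes lysozyme M, the bacteria-lysing enzyme of macrophages and neutrophils, so it is not a gene of macrophages alone. The gene lies on chromosome 10 from 117277331 to 117282321. Its levels were 4.63, 5.80, 7.05 and 6.77 CPM in the WT and 3.06, 3.35, 3.83 and 4.72 in the KO libraries. KO replicate 4 lay just above WT replicate 1, and the other 3 KO libraries lay below all of the WT. Lyz2 fell by 0.69 on the log2 scale (standard error 0.15, edgeR adjusted p = 0.000259), 1.61-fold. Lyz1, the copy 5.48 kb away known from Paneth cells, had 11, 12, 11 and 17 counts in the WT and 8, 4, 9 and 9 in the KO libraries, without overlap (log2 fold change -0.74, standard error 0.41, adjusted p = 0.391). The 2 annotated transcripts are 92.0% identical, with a longest identical run of 118 bases, so reads of one may have been counted at the other.

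The other 7 tested genes of tissue macrophages did not pass. Cd68, which encodes a lysosomal membrane protein of macrophages, was the most abundant macrophage member per kilobase (9.19 CPM per kilobase in the WT libraries). It stood at 11.4, 11.3, 12.2 and 11.3 CPM in the WT and 8.50, 10.6, 9.92 and 10.9 in the KO libraries. The groups did not overlap, as for 4.72% of all genes tested in that direction, but the log2 fold change of -0.21 (standard error 0.10) did not pass (edgeR adjusted p = 0.273). Csf1r, the receptor gene on which macrophages depend, was at 5.76 ± 0.329 and 5.14 ± 0.407 CPM (SD, n = 4; log2 fold change -0.16, adjusted p = 0.629), overlapping. Mrc1, the mannose receptor gene, was at 3.52 ± 0.513 and 3.21 ± 0.367 CPM (-0.13, adjusted p = 0.796). Ctss, which encodes the antigen-processing protease cathepsin S, had 33, 33, 30 and 27 counts in the WT and 28, 18, 22 and 17 in the KO libraries (log2 fold change -0.50, adjusted p = 0.358), with groups that overlapped. Cx3cr1, the fractalkine receptor gene, had a log2 fold change of -0.36 (adjusted p = 0.625) and Fcgr3, an Fc receptor gene, one of -0.41 (0.714). Csf1r and Cx3cr1 overlap other annotated genes, whose reads may be counted with theirs.

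Of 6 pan-leukocyte genes tested, edgeR, DESeq2 and limma voom each called 0, and 0 had an unadjusted edgeR p under 0.05. Ptprc, which encodes CD45 of all nucleated blood cells, had 45, 45, 37 and 31 counts in the WT and 37, 34, 42 and 32 in the KO libraries (log2 fold change -0.09, standard error 0.22, adjusted p = 0.901). The groups overlapped fully. Fcer1g, which encodes the signalling chain shared by Fc receptors, had 21, 14, 20 and 22 counts in the WT and 12, 10, 17 and 9 in the KO libraries, with some overlap (log2 fold change -0.66, standard error 0.34, adjusted p = 0.340). Spi1, the gene of PU.1, had a log2 fold change of -0.28 (adjusted p = 0.817) and Itgam, which encodes CD11b of myeloid cells, -0.30 (0.745). Coro1a, an actin-regulator gene of leukocytes, had 36, 54, 34 and 44 counts in the WT and 42, 42, 43 and 42 in the KO libraries (log2 fold change 0.04, adjusted p = 0.958); its span overlaps that of Bola2 on the other strand. Laptm5, which encodes a lysosomal protein of blood cells, had the largest standard error of the 22 tested members, 0.50 on the log2 scale. It had 56, 83, 26 and 23 counts in KO replicates 1 to 4 and 34, 80, 55 and 53 in the WT replicates, and the groups overlapped.

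**Figure D2:**
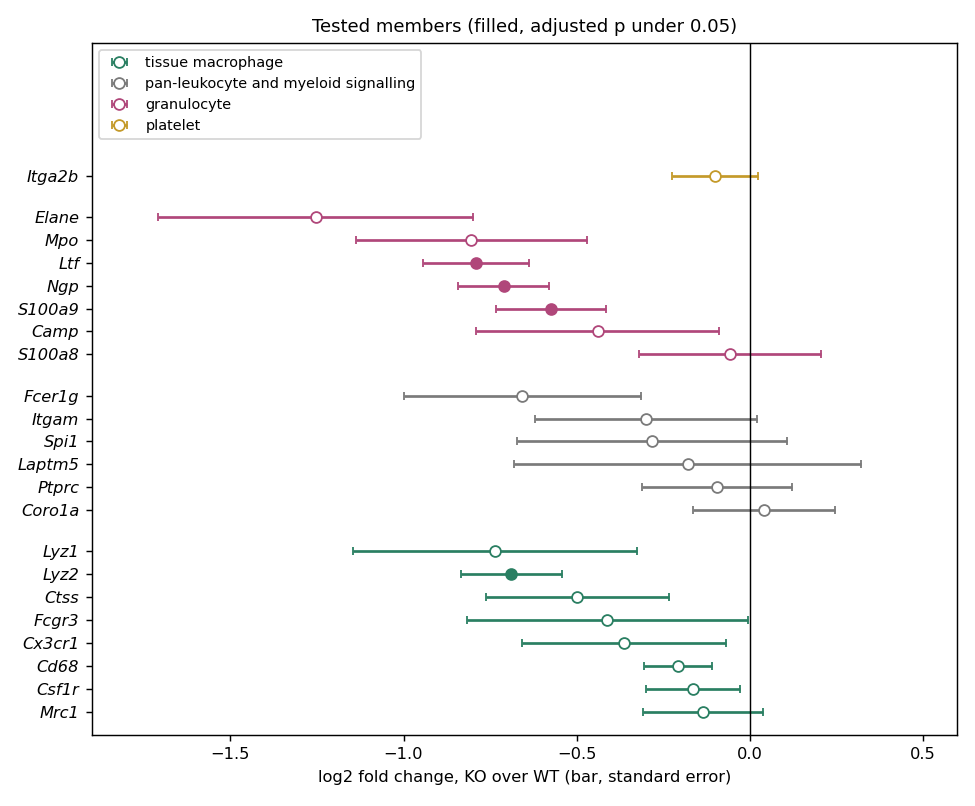
Log2 fold change, KO over WT, of the 22 tested members by role, with the standard error as a bar; filled points passed at an edgeR adjusted p under 0.05. The 4 filled points, Ltf, Ngp, Lyz2 and S100a9, lie between -0.79 and -0.57, and Coro1a at 0.04 is the 1 point above 0.

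Below the filter lay 14 members, with 0 to 33 counts in a library. Scaled sums of 10 of the 14 were lower in the KO libraries, against 47.1% of all 21905 genes with a count that the filter removed. Groups of 3 members did not overlap: C1qa, Cpa3 and Gp9, each lower, a pattern of 1.11% of those genes. The genes of complement C1q, whose 3 chains assemble into 1 complex that tags dying cells and synapses and which tissue macrophages make, sit side by side on chromosome 4. C1qa had 7, 7, 8 and 13 counts in the WT and 1, 2, 3 and 4 in the KO libraries, a ratio of scaled sums of 0.291 (95% interval 0.129 to 0.601). C1qb had 11, 15, 7 and 19 counts and then 7, 6, 5 and 6, a ratio of 0.471 (0.278 to 0.778). C1qc had 7, 9, 33 and 5 counts and then 5, 6, 3 and 8, a ratio of 0.416 (0.241 to 0.694) that rests on WT replicate 3, the only library above 9. Without WT replicate 3, which was left out after its count was seen, the C1qc ratio was 0.791 (0.415 to 1.51). All these intervals reflect counting error alone and leave out the spread between libraries. They may be too narrow even for counting error, because several reads can stem from 1 molecule. Tested with no filter, none of the 3 chains passed (edgeR adjusted p = 0.130, 0.296 and 0.171).

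Mast cell and platelet genes were near the limit of detection, apart from Itga2b. Cpa3, the carboxypeptidase gene of mast cells, had 4, 8, 7 and 6 counts in the WT and 1, 2, 0 and 1 in the KO libraries, a ratio of 0.163 (95% interval 0.0413 to 0.473, counting error only). The groups did not overlap, but with no filter the gene did not pass (edgeR adjusted p = 0.101). Mcpt4, a chymase gene of connective-tissue mast cells, had 1, 4, 3 and 4 counts in the WT and 1, 5, 2 and 2 in the KO libraries, which overlap. Among platelet genes, Gp9, part of the von Willebrand factor receptor, had 4, 7, 3 and 4 counts and then 1, 1, 3 and 2, a ratio of 0.397 (0.140 to 0.995; adjusted p = 0.628 with no filter). WT replicate 3 and KO replicate 3 both had 3 Gp9 counts, so its groups separate only after scaling. Pf4, which encodes platelet factor 4, had 0, 2, 1 and 0 counts in the WT and 0, 0, 2 and 1 in the KO libraries. Itga2b, which encodes the integrin CD41, was at 6.26, 6.79, 7.11 and 6.30 CPM in the WT and 6.24, 6.04, 5.46 and 6.97 in the KO libraries, overlapping (edgeR adjusted p = 0.789 for a log2 fold change of -0.10) and made up most of the platelet sum. Of the remaining members below the filter, Adgre1, Aif1, Fcgr1 and Tyrobp had 36, 39, 22 and 22 counts over the WT and 26, 28, 7 and 12 over the KO libraries. Cd52, Cd14 and Cd163 had 22, 13 and 8 over the WT and 24, 16 and 13 over the KO libraries. Adgre1 (F4/80), Aif1 (Iba1), Cd14 and Cd163 are common macrophage markers, Fcgr1 and Tyrobp encode an Fc receptor and a signalling adaptor, and Cd52 encodes a small leukocyte surface protein.

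**Figure D3:**
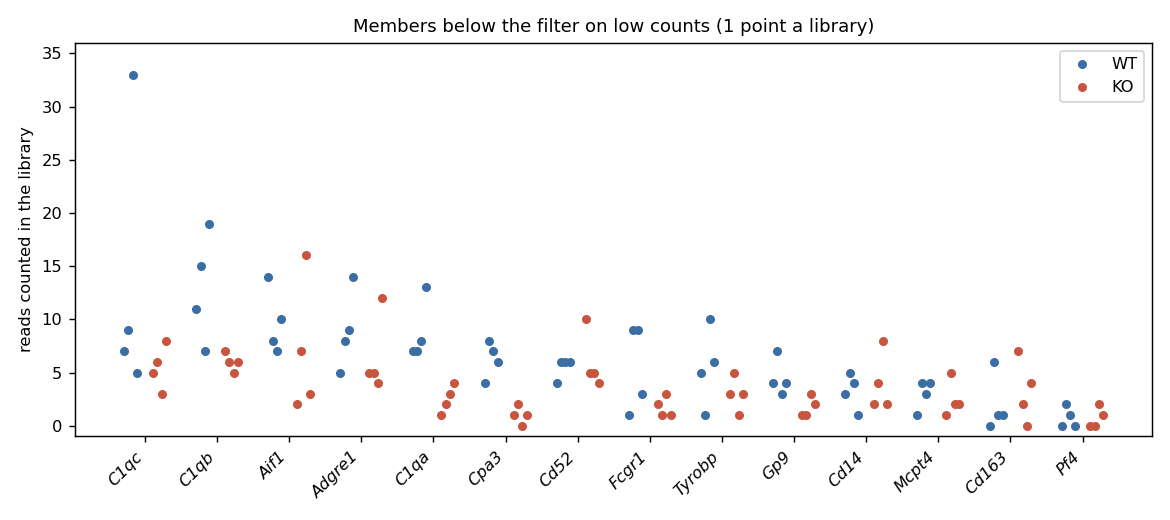
Reads counted in each library for the 14 members below the filter on low counts (WT blue, KO red; 1 point a library). C1qa and Cpa3 show KO points below all WT points, and the C1qc count of 33 in WT replicate 3 stands alone.

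Other genes of the same cells were counted from 10 wider lists of 123 genes. In the monocyte and neutrophil list 1 of 6 tested genes fell and 8 more were not tested. Of the 6, 3 had a log2 fold change below 0 and 3 above 0, with a median of -0.036. Among the 8 not tested, scaled sums of 6 were lower and of 2 higher in the KO libraries. The faller was Ccr2, the receptor by which monocytes leave the marrow. It had 12, 31, 19 and 17 counts in the WT and 8, 6, 9 and 9 in the KO libraries, all of the KO being lower. Its log2 fold change was -1.25 (standard error 0.37, edgeR adjusted p = 0.0217). It no longer passed when WT replicate 2 (-1.01, adjusted p = 0.185) or KO replicate 2 (0.0860), 3 (0.0567) or 4 (0.0545) was left out, nor with DESeq2 (0.0673) or limma voom (0.0562). Lcn2 and Mmp9, genes of neutrophil granule proteins that epithelia and other cells also make, were at 2.47 ± 0.728 and 2.70 ± 0.312 CPM (0.12 on the log2 scale, adjusted p = 0.845) and at 1.47 ± 0.365 and 1.42 ± 0.605 CPM (-0.08, 0.935). The list's summed level was 8.73 to 10.1 CPM in the WT and 7.59 to 8.99 in the KO libraries.

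Among 8 tested genes of myeloid transcription factors 1 fell and 1 rose. Cebpa, which encodes a factor of granulocyte commitment also made in fat, liver and other cells, was at 25.8, 23.2, 24.0 and 22.6 CPM in the WT and 18.5, 17.8, 21.4 and 20.9 in the KO libraries. It fell by 0.28 on the log2 scale (standard error 0.07, edgeR adjusted p = 0.00398; 0.0523 without KO replicate 2). Runx1, a factor of blood stem cells also made in epithelia, rose from 7.54 ± 0.884 to 10.3 ± 0.939 CPM (SD, n = 4; log2 fold change 0.44, adjusted p = 0.00249). Neither gene overlapped between the groups. The other 6 tested factors did not pass, among them Maf at -0.07 (adjusted p = 0.528) and Klf4 at 0.08 (0.462).

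Of 11 other macrophage genes tested, 1 fell, and of 12 lysosomal genes that every cell uses, 3 fell. Apoe, which encodes a lipid carrier made by macrophages and steroid-producing cells, fell by 0.15 on the log2 scale (standard error 0.04, edgeR adjusted p = 0.00866; 0.0616 without WT replicate 3). Dab2 and Gas6, genes of an endocytic adaptor and of a ligand for engulfment receptors, stood at 0.11 (adjusted p = 0.119) and -0.08 (0.262). Cybb, Mpeg1, Stab1 and Ms4a7 of this list were named after their values were seen. They stood at -0.65, -0.20, 0.006 and 0.25 (edgeR adjusted p = 0.171, 0.439, 0.986 and 0.776). Of the 11 other macrophage genes 8 lay below 0 and 3 above. Scaled sums of the list's 7 genes below the filter were lower for 1 and higher for 6. The list's summed level overlapped, at 294.5 to 308.6 CPM in the WT and 286.8 to 300.2 in the KO libraries. The lysosomal protease genes Ctsl, Ctsb and Lgmn fell by 0.12, 0.17 and 0.24 (adjusted p = 0.000795, 0.00398 and 0.00981), the last lost without WT replicate 4 (0.122) or KO replicate 2 (0.0552). Psap, at 190 and 189 CPM, and Lamp2 did not pass. Of the 12 lysosomal genes 11 lay below 0 and 1 above. Their summed level was 743 to 769 CPM in the WT and 710 to 735 in the KO libraries, a difference that was not tested. Of 7 growth factor and chemokine genes tested, edgeR, DESeq2 and limma voom each called 0, and 0 had an unadjusted edgeR p under 0.05. Cxcl12 and Cx3cl1, chemokine genes, had log2 fold changes of -0.03 and 0.10 (adjusted p = 0.744 and 0.665). Csf1 and Il34, which encode the ligands of CSF1R and were named after their values were seen, stood at -0.04 and 0.10 (0.926 and 0.822).

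In the MHC class II list of antigen-presentation genes, whose products display peptides on macrophages, dendritic cells, B cells and some epithelia, 2 of 6 tested genes rose and none fell, the list's median log2 fold change being 0.46 where that of all 23190 genes was 0.00198. H2-Ab1 had 31, 33, 26 and 24 counts in the WT and 44, 53, 56 and 57 in the KO libraries (log2 fold change 0.91, standard error 0.21, edgeR adjusted p = 0.00147). H2-Eb1 rose by 1.05 (adjusted p = 0.00820), KO replicate 2 lying highest, at 3.05 CPM against 1.28 to 1.65 in the other KO libraries. H2-Eb1 no longer passed when KO replicate 2 (0.71, adjusted p = 0.266) or WT replicate 3 (0.0671) was left out, nor with limma voom (0.0836). Cd74, the invariant chain gene, was at 2.69 ± 0.472 and 3.39 ± 0.0678 CPM (SD, n = 4; 0.33, adjusted p = 0.380), and Ciita, the class II activator gene, at 0.17 (0.540). The seventh gene, H2-DMb1, which was named after its values were seen, was below the filter, with 32 counts over the WT and 20 over the KO libraries. The summed level of the list was 14.0 to 16.8 CPM in the WT and 18.2 to 21.3 in the KO libraries.

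Of 5 lymphoid genes tested, Ighm, the IgM heavy chain gene, rose by 0.62 (standard error 0.20, edgeR adjusted p = 0.0488). WT replicate 1 lay among the KO libraries. Ighm no longer passed when WT replicate 2, 3 or 4 (adjusted p = 0.110, 0.203 and 0.182) or any 1 KO library (0.0587 to 0.1498) was left out, nor with DESeq2 (0.136) or limma voom (0.0710). In edgeR it was also lost with library totals alone (adjusted p = 0.058), no filter on low counts (0.0798) or no robust dispersion (0.0640). The call was thus lost in 12 of 17 alternatives. Cd79a and Cd4 had log2 fold changes of 0.32 and 0.14 (adjusted p = 0.577 and 0.879). Rag1, which cuts antigen receptor genes, was below the filter and was picked out after its values were seen. It had 1, 1, 0 and 0 counts in the WT and 7, 7, 5 and 5 in the KO libraries, a ratio of scaled sums of 12.2 (95% interval 3.04 to 107; edgeR adjusted p = 0.0256 with no filter). In 3 further lists edgeR, DESeq2 and limma voom each called 0 genes. Of 16 shared haematopoietic signalling genes tested, 2 had an unadjusted edgeR p under 0.05, Itgal and Rac2, which were named after their values were seen. Itgal, an integrin gene of leukocytes, had a log2 fold change of -0.54 (adjusted p = 0.0627) and Rac2, a GTPase gene of blood cells, one of -0.74 (0.172), both with groups that overlapped. Syk and Lyn, kinase genes of that list, stood at 0.08 and -0.01. Of its 16 tested genes 11 lay below 0 and 5 above, against 49.3% below 0 over all genes tested. Scaled sums of its 4 genes below the filter were lower for 3 and higher for 1. The list's summed level was 69.46 to 73.31 CPM in the WT and 62.55 to 69.03 in the KO libraries, a difference that was not tested. Of 4 megakaryocyte genes tested, 1 had an unadjusted edgeR p under 0.05, Itgb3 (log2 fold change -0.19), and Gp1ba stood at 0.17. Of 3 mast cell and basophil genes tested, 0 had such a p, and Hdc and Gata2 stood at 0.005 and 0.05. Without KO replicate 3 Itgb3 was called (-0.26, adjusted p = 0.0452). Ppbp, the most specific platelet chemokine gene, and Fcer1a, the IgE receptor gene of mast cells, were at 0 in all 8 libraries, which allows up to 0.149 to 0.183 CPM in a library.

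**Figure D4:**
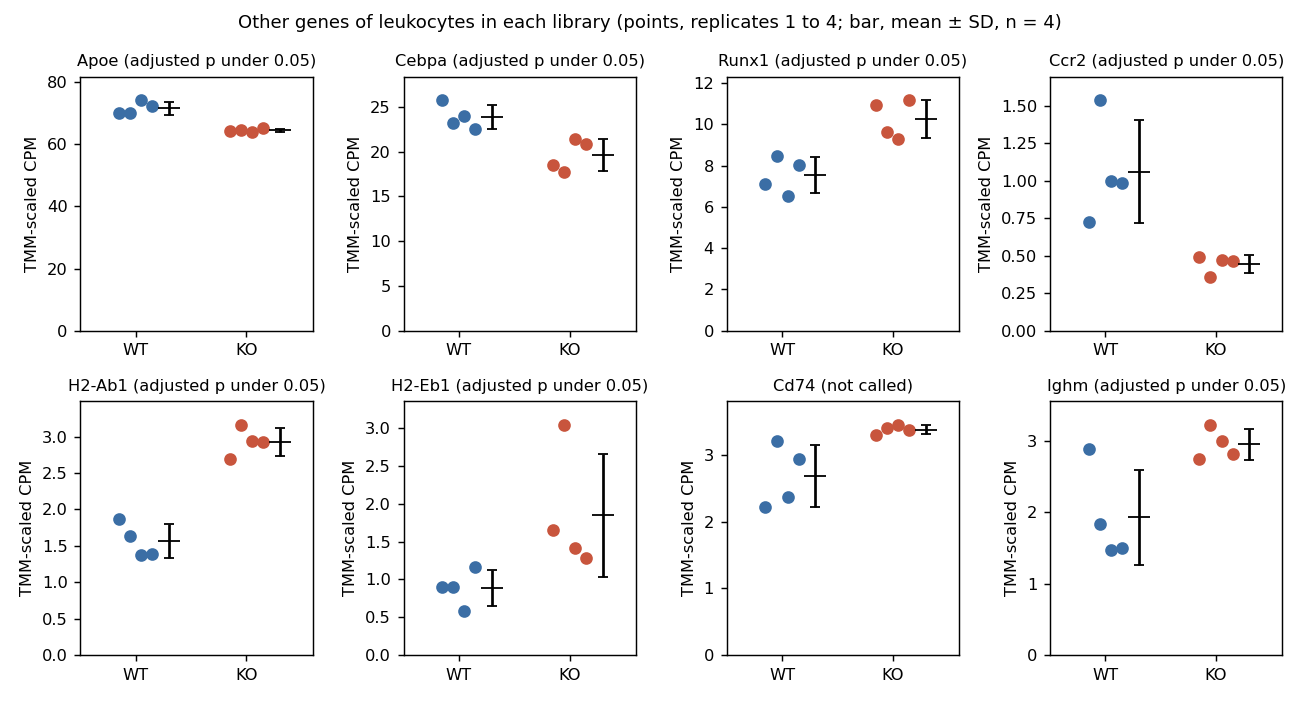
TMM-scaled CPM in each library (points; bars, mean and SD, n = 4) of 8 genes from the wider lists, each panel with a linear axis from 0. Apoe, Cebpa and Ccr2 are lower in every KO library, Runx1, H2-Ab1, H2-Eb1 and Cd74 are higher in every KO library, and Ighm overlaps.

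Markers of other cells moved between the same libraries. The summed level of 9 erythroid genes was 226 to 240 CPM in the WT and 94.5 to 99.6 in the KO libraries, a ratio of means of 0.421, and 5 of the 9 fell while none rose. Tubular epithelial genes summed to 38.6 to 41.1 and 78.3 to 88.6 CPM, and all 8 rose. Endothelial genes summed to 179 to 195 and 202 to 208 CPM, with 2 of 8 up, and Leydig genes to 3121 to 3150 and 2838 to 2880 CPM, with 5 of 7 down. Sertoli genes summed to 642 to 665 and 624 to 649 CPM, with 1 of 8 down, and germ-cell genes to 193 to 211 and 184 to 194 CPM, with 2 of 9 tested down and 1 up. None of the genes in these 6 lists was at 0 in all libraries. Their part in the leukocyte results was not tested.

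**Figure D5:**
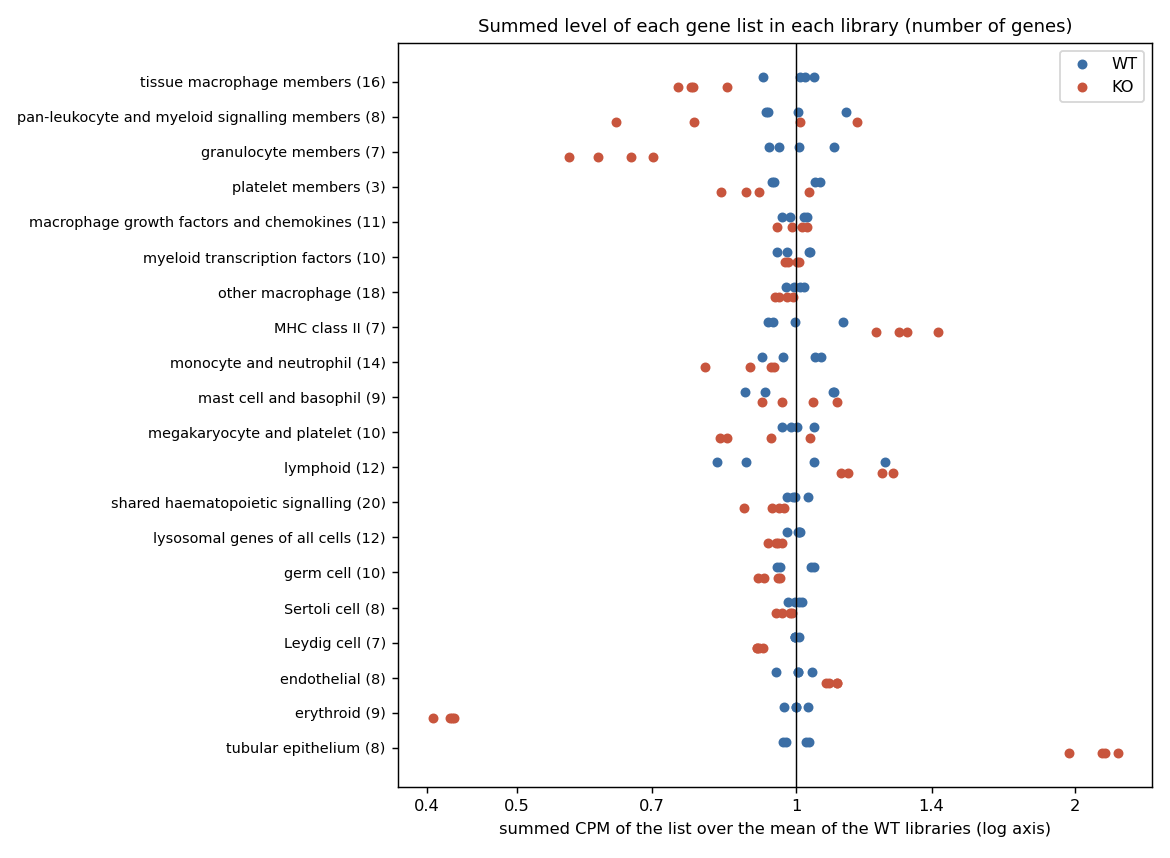
Summed CPM of each gene list in each library over the mean of the WT libraries, on a log axis (WT blue, KO red; 1 point a library, number of genes in brackets; the 2 mast cell members, at under 1 CPM, are left out). Granulocyte and tissue macrophage members lie left of the WT points in all 4 KO libraries, erythroid genes lie farther left, and MHC class II and tubular epithelial genes lie to the right.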

How the data were processed

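The authors deposited 1 table of raw counts of reads per gene, with 8 library columns and no normalization, per the file headers. Its other columns, per the file headers, give each gene's exons and its length in bases. Tools named per the submitters' processing notes are DESeq2, featureCounts, Subread and STAR 2.5.2b, and the build is GRCm38; strand and multi-mapping settings are not given in the sources used here. Per the labels' protocols, libraries were made from very small amounts of total RNA with a stranded pico-input kit. A reference table of gene names matched 55141 of 55487 IDs. Lyz1 and Lyz2 transcripts are those of GENCODE M21.

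Counts were fitted in R 4.3.3 with edgeR 4.0.16 (filterByExpr, TMM, robust quasi-likelihood test, two-sided, KO against WT), and adjusted by Benjamini-Hochberg over all 23190 genes tested. A gene was called at an adjusted p under 0.05. The common coefficient of variation between replicates that edgeR estimated was 3.86%. It is 1 value for all genes and leaves out counting noise, so the spread of genes with few reads is larger. CPM are TMM-scaled. Ratios of summed counts carry exact 95% binomial intervals. Partner pairs were compared by exact permutation of log2 ratios (pseudocount 0.5 counts), a test added after the data were seen. The fit was tested on simulated counts drawn with 1 common coefficient of variation, with changes placed only in the more abundant genes. That test therefore does not cover members with few reads.

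Members and lists were chosen with earlier results of these data known. Values are given for every member. From each wider list up to 3 called genes with the smallest p and up to 2 uncalled genes with the highest CPM were named. Csf1, Il34, Itgal, Rac2, H2-DMb1, Rag1, Ppbp, Fcer1a, Prtn3, Cybb, Mpeg1, Stab1 and Ms4a7 were added after their values were seen. Alternatives were 3 scalings, 2 filters, DESeq2 1.42.0, limma 3.58.1 voom, no robust dispersion, a replicate block and 8 fits without 1 library. 1 gene of the wider lists is not reported here.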

Additional observations from a re-analysis of the deposited data

Results flagged for a closer look

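In 5 of the 82 sets of 4 libraries looked at (each member and each role's sum, per group), 1 library stood apart from the other 3; chance flags about 1 in 20 such sets. C1qc stood at 1.74 CPM in WT replicate 3 against 0.289 to 0.446 in the other WT libraries. Mpo was at 1.74 CPM in WT replicate 4 against 0.991 to 1.08. Lyz1 was at 0.239 CPM in KO replicate 2 against 0.461 to 0.489. Cd68 was at 12.2 CPM in WT replicate 3 against 11.3 to 11.4. The mast cell members summed to 0.418 CPM in KO replicate 2 against 0.105 to 0.154.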

How the results depend on the processing

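The falls of Ngp, Ltf and Lyz2 were called in all 17 alternatives and that of S100a9 in 12 of 17; Elane was called in 1 and no other member in any. The number of members called ranged from 3 to 5 over the fits without 1 library and was 3 or 4 in the others, with every call lower. The count over all genes ranged from 898 to 1040 without 1 library, from 1193 in the main fit, and was 794 with the DESeq2 test (420 lower, 374 higher); the cause was not tested. With the replicate number as a block 1249 genes and 4 members were called. The labels do not say that a number marks a shared litter or day, and deviations of same-numbered libraries correlated at only -0.0097 to 0.0215, 2 of 4 WT libraries correlating best with their own number. The block changed no member's call. Members below the filter, at 0 to 33 counts, allow only wide intervals, and standard errors of the tested members were 0.10 to 0.50 on the log2 scale.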
